A study of Mus musculus with 4 samples.

Results

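Voltage-gated sodium and calcium channel subunits were taken as the protein-coding genes whose mouse symbol is Scn with a number and a or b, or begins with Cacna1, Cacna2d, Cacnb or Cacng. This gave 40 of the 55421 genes listed in the deposited files. The genes were measured by ribosomal RNA-depleted, strand-specific total RNA sequencing in C57BL/6J mouse astrocytes made in culture from neural stem cells (NSCs) in a medium with serum. The cells had received a lentivirus with either an shRNA specific for PHF8 (Phf8 shRNA, 2 libraries) or a control shRNA (2 libraries), so both groups share the infection, the strain and the differentiation. Phf8 codes for a demethylase of histone lysines, and an shRNA lowers its target by RNA interference. The labels give neither the number of hairpins nor the time after infection, and the control hairpin is not described.

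Voltage-gated sodium channels are built from a large pore-forming alpha subunit and small single-pass beta subunits, and they carry the upstroke of the action potential in neurons. Voltage-gated calcium channels have an alpha1 pore subunit, which sets the type (L-type Cav1, P/Q-, N- and R-type Cav2, T-type Cav3). Cav1 and Cav2 pores also carry an extracellular alpha2delta and a cytoplasmic beta subunit that bring the pore to the membrane. Of the gamma-type proteins, the products of Cacng1 and Cacng6 belong to muscle-type calcium channels. Most of the others are transmembrane AMPA receptor regulatory proteins (TARPs), which traffic and gate glutamate receptors. Astrocytes are not excitable in the way neurons are, yet transcripts of many of these genes are found in glia, and oligodendrocyte precursors are known to carry both sodium and calcium channels.

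Library totals lay between 36839530 and 44724759 reads, and the channel genes together took 26007 to 31831 reads of a library, or 0.0671% to 0.0754%. Mitochondrial ribosomal RNA took 27.8% and 28.2% of the reads in Phf8 shRNA libraries, against 21.2% and 22.5% in control libraries. The targeted gene, Phf8, stood at 44.3 and 42.3 CPM with Phf8 shRNA, against 53.3 and 53.0 CPM with control shRNA (log2 fold change -0.30 ± 0.06 SE, edgeR adjusted p = 1.72e-06). CPM here means read counts scaled to the effective library size from TMM, in the usual CPM unit, errors of means are SD with n = 2 libraries, and "rose" or "fell" is used of genes whose quasi-likelihood p from edgeR, adjusted over all genes, was under 0.05. The labels call the cells astrocytes, and all of 8 astrocyte markers had at least 1 CPM in both groups. So did 9 of 12 neuron markers, so this level does not set astrocytes apart from a mixed culture. Gfap fell to 1172 CPM with Phf8 shRNA, against 3971 CPM in controls, and Slc1a2 rose to 975 CPM, against 135 CPM.

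Most of the channel genes that could be tested changed, and the direction differed between members of the same subunit class. The filter on low counts left 31 of the 40 genes: 15 rose, 11 fell and 5 did not pass the test. Over all 21042 genes tested, 24.8% rose and 27.3% fell, which together is 52.1%. The level summed over the 40 genes was 694 and 708 CPM in Phf8 shRNA libraries, against 736 and 717 CPM in control libraries. The median log2 fold change of the 31 tested genes was 0.40, beside 0.01 over all genes tested. Without Phf8 shRNA replicate 2 the filter left 32 channel genes, a slightly different set, with a median of 0.25. The median absolute change of the called channel genes was 0.67, beside 0.58 for all called genes. Changes of at least 2-fold were found for 4 genes that rose (Cacna1g, Cacna2d2, Cacng2 and Cacna1i) and 4 that fell (among them Cacna1s, Cacnb4 and Cacng5), while over all genes 5.5% rose and 8.71% fell by that much. The 2 groups of libraries did not overlap for 28 of the 31 tested genes, beside 73.9% of all genes tested. Of the 8 subunit classes, 7 held genes that rose and genes that fell. Classes with few called genes can readily hold both directions when rises and falls are about equally common, as they were over all genes. No chance figure was computed for this count. RNA of a whole culture cannot tell fewer cells of a type from less RNA per cell.

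**Figure D1:**
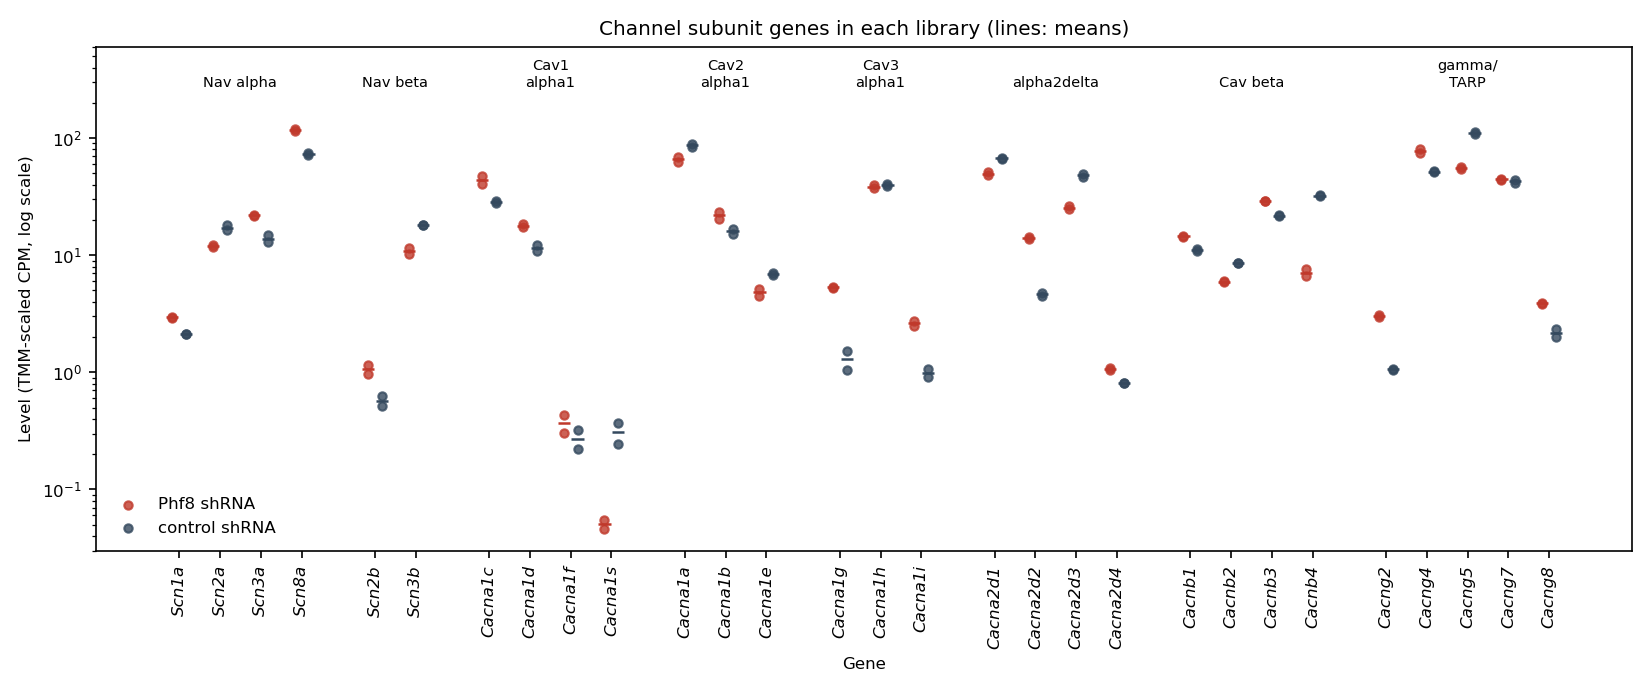
Levels of 29 of the 31 tested channel subunit genes in each library, as TMM-scaled CPM on a log axis, with Phf8 shRNA libraries (red) to the left of control libraries (dark blue) and lines at the means. Both libraries of a group lie close together for most genes, and levels run from about 0.05 CPM for Cacna1s with Phf8 shRNA to 119 CPM for Scn8a with Phf8 shRNA.

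**Figure D2:**
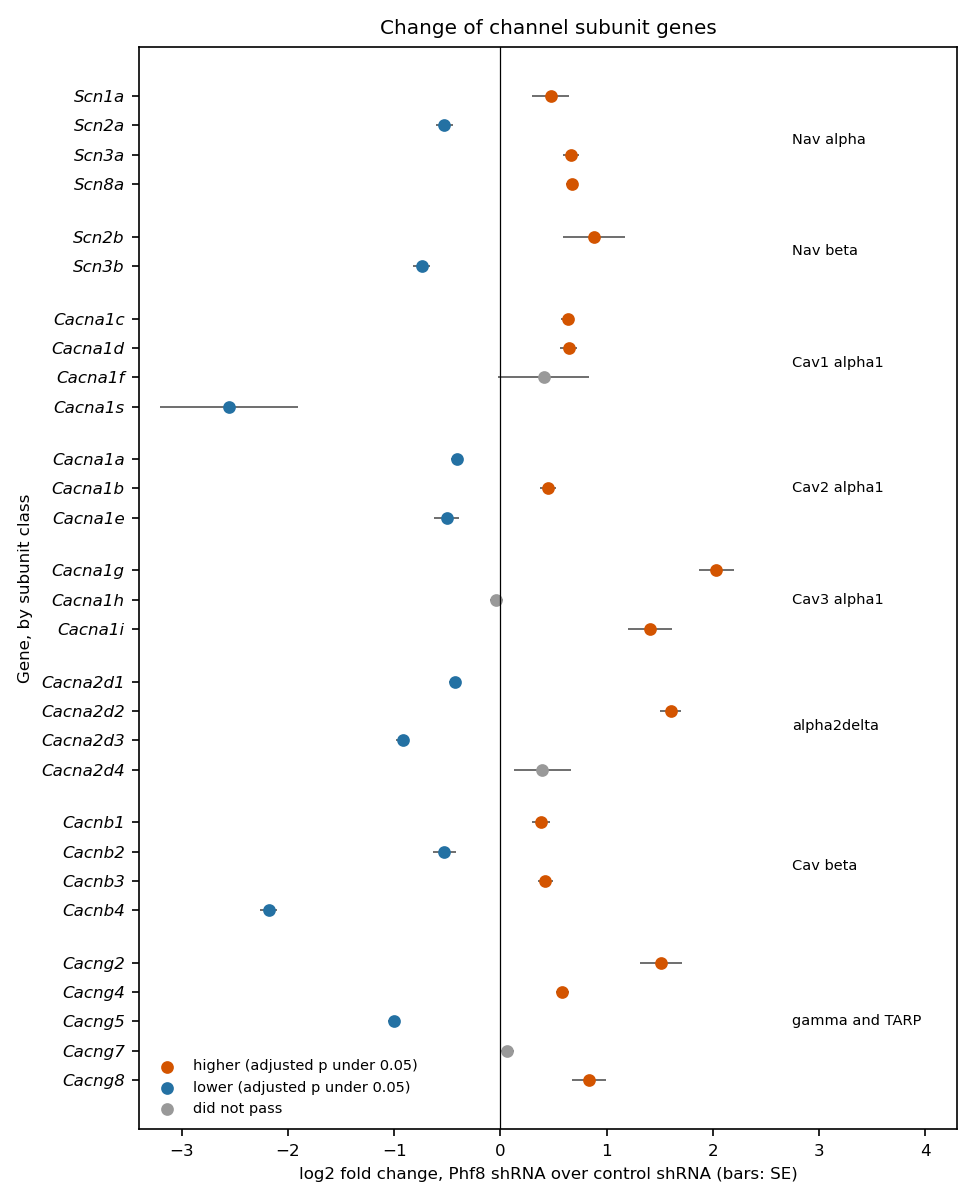
The log2 fold change of the same 29 genes, Phf8 shRNA over control shRNA, with bars of 1 SE, grouped by subunit class and coloured by the call. The T-type pair Cacna1g and Cacna1i, Cacna2d2 and Cacng2 stand farthest to the right, and Cacna1s and Cacnb4 farthest to the left.

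Promoter sequence was looked at, a choice made after the values were seen, because genes of the same class moved in opposite directions. RefSeq promoters (GRCm38.p6, the assembly of mm10) were matched by symbol for 30 of the 40 genes. The start of 5 called genes coincided with the deposited 5′ end, and the 250 bases before that start are printed below for these 5, with GC boxes (GGGCGG on either strand) in capitals. Cacna1b and Cacna1i rose, whereas Cacna2d1, Cacna2d3 and Cacng5 fell.
Cacna1b, chr2:24763153-24763402, minus strand: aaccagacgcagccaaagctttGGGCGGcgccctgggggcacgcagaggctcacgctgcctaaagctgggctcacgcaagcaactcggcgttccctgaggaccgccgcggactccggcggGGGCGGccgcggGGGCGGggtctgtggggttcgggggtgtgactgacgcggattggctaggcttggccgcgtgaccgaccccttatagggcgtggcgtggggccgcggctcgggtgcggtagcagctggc
Cacna1i, chr15:80286988-80287237, plus strand: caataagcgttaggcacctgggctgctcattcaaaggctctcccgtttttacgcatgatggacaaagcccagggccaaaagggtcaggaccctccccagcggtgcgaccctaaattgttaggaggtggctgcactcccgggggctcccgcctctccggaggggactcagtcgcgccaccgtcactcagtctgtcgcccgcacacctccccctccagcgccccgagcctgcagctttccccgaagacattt
Cacna2d1, chr5:15934441-15934690, plus strand: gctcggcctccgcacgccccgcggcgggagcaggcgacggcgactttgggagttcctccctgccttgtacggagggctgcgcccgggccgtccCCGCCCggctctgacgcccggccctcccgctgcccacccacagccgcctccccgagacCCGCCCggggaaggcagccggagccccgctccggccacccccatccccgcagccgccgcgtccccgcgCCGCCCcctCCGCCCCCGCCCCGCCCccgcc
Cacna2d3, chr14:29721865-29722114, minus strand: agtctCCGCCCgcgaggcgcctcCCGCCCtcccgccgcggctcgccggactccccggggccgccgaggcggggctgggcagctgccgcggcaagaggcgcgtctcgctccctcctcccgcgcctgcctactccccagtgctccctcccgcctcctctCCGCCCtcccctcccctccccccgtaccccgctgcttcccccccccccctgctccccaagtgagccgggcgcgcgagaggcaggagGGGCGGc
Cacng5, chr11:107915056-107915305, minus strand: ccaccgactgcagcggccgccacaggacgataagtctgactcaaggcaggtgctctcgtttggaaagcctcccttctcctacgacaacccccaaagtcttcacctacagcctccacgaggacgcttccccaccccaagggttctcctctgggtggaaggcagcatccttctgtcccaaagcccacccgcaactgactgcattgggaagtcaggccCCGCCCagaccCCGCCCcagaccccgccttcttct

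The 3 windows of genes that fell held 6 (Cacna2d1), 4 (Cacna2d3) and 2 (Cacng5) GC boxes, and those of the genes that rose held 3 (Cacna1b) and 0 (Cacna1i). Among the 24 genes whose RefSeq start lay within 1000 bases of the deposited 5′ end, a GC box stood in 3 of the 10 windows of genes that rose and in 5 of the 6 windows of genes that fell. Over all 32851 RefSeq windows of the same length, 32.7% held one. The windows also differed in base composition, with a median of 62.2% G and C for genes that rose and 71% for genes that fell, beside 52.4% over all windows. The GC box counts were not adjusted for it, and they are a description of few windows, with no test. The values over all windows use every RefSeq entry, were not limited to tested genes and were not split by call. The median ratio of observed to expected CpG was 0.671 in windows of genes that rose and 0.682 in those of genes that fell, beside 0.373 over all windows. A CCAAT box (CCAAT) was in 7 of the 24 windows, beside 33.8% of all windows, and a TATA box (TATAAA) in 1, beside 12.4%. The letters of the cyclic AMP response element (TGACGTCA), an E-box (CACGTG) and the left part of the REST site RE1 (TTCAGCACC) were in 0 of the 24 windows, beside 1.55%, 6.02% and 0.301% of all windows. Each motif was searched on both strands, hits of the same motif could overlap, and no motif contains another.

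Among the sodium channel alpha subunits, the genes of the central nervous system were measured at sizeable levels and moved in different directions. Scn8a, which encodes the main sodium channel of nodes of Ranvier and mature axon initial segments, stood at 115 and 119 CPM with Phf8 shRNA, against 74.4 and 72.2 CPM with control shRNA. It rose 1.6-fold (log2 fold change 0.68 ± 0.06 SE, edgeR adjusted p = 2.57e-32). Both Phf8 shRNA libraries were above both controls. Scn3a, the alpha subunit typical of the embryonic brain, stood at 21.8 and 22.0 CPM with Phf8 shRNA, against 12.9 and 14.7 CPM in controls, and rose 1.58-fold (0.66 ± 0.08, edgeR adjusted p = 3.03e-17). Scn2a, the alpha subunit of early axons and of unmyelinated fibres, went the other way and also without overlap. It stood at 11.7 and 12.3 CPM with Phf8 shRNA, against 18 and 16.5 CPM in controls, and fell 1.44-fold (-0.53 ± 0.08, edgeR adjusted p = 5.91e-10). Scn2a (chromosome 2, 65620771 to 65767447, plus strand) and Scn3a (65457118 to 65567627, minus strand) are neighbours in the files' mm10 coordinates.

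Scn1a, which lies farther along chromosome 2 and encodes the alpha subunit prominent in inhibitory interneurons, had 127 and 109 reads with Phf8 shRNA, against 92 and 87 reads in controls. It rose 1.39-fold (log2 fold change 0.47 ± 0.17 SE) with an edgeR adjusted p of 0.0132, and lost the call with DESeq2 (adjusted p = 0.129) and without control replicate 1 or 2 (edgeR adjusted p = 0.0839 and 0.0712). The alpha subunits of skeletal muscle and of peripheral sensory neurons were at the edge of detection. Scn4a, Scn7a, Scn9a, Scn10a and Scn11a were below the filter, with at most 20 reads in a library, and Scn10a had 0 reads in all 4. Scn7a, which encodes the sodium-sensing Nax channel of specialised glia, had 2 and 3 reads with Phf8 shRNA, against 20 and 8 in controls, a depth-adjusted control over Phf8 shRNA ratio of 5.32 (95% exact counting interval 2.03 to 17.6) that was 3.13 without control replicate 1. Scn11a, a sensory neuron gene, had 11 and 4 reads with Phf8 shRNA, against 1 and 1 in controls, a Phf8 shRNA over control ratio of 7.90 (1.84 to 71.2) that was 4.59 without Phf8 shRNA replicate 1. These intervals cover counting error only, and with no low-count filter edgeR called both genes.

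Per kilobase of exon, the alpha subunit genes summed to 10.3 and 10.7 CPM per kb with Phf8 shRNA, against 7.46 and 7.35 CPM per kb in controls. The make-up of that sum differed as well. Scn8a took 70.7% and 70.9% of it with Phf8 shRNA, against 63.3% and 62.4% in controls, and Scn2a took 8.87% and 9.03%, against 18.9% and 17.6%. Scn3a, with 16.9% and 16.5% against 13.9% and 16.1%, took a more similar share in both groups.

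Of the beta subunit genes of sodium channels, Scn3b fell and Scn2b rose. Scn3b, whose product modulates the gating of alpha subunits, stood at 11.4 and 10.3 CPM with Phf8 shRNA, against 18.1 and 18.3 CPM in controls, and fell 1.67-fold (log2 fold change -0.74 ± 0.08 SE, edgeR adjusted p = 1.96e-18). Both Phf8 shRNA libraries were below both controls. Scn2b, whose product is linked to the alpha subunit by a disulfide bond, had 42 and 42 reads with Phf8 shRNA, against 27 and 21 in controls. It rose 1.84-fold (log2 fold change 0.88 ± 0.29 SE) with an edgeR adjusted p of 0.00593, which became 0.105 with DESeq2, 0.0902 without control replicate 2 and 0.0621 without Phf8 shRNA replicate 2. Scn4b had 2 reads over all libraries, 1 in each group, and was not tested.

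The L-type calcium channel genes of brain rose. Cacna1c, the main L-type pore of heart and brain (chromosome 6, 118587240 to 119196418, minus strand), stood at 40.5 and 47.3 CPM with Phf8 shRNA, against 28.8 and 27.7 CPM in controls. It rose 1.55-fold (log2 fold change 0.63 ± 0.06 SE, edgeR adjusted p = 2.71e-23). Cacna1d, an L-type pore that opens at lower voltage, stood at 17.3 and 18.6 CPM, against 10.8 and 12.1 CPM, and rose 1.56-fold (0.64 ± 0.08, edgeR adjusted p = 2.37e-14). The 2 rises were of about the same size, so the share of Cacna1c in the L-type sum, 57.6% and 59.4% with Phf8 shRNA against 58.9% and 56.2% in controls, overlapped between groups. The retinal Cacna1f did not pass (29 reads with Phf8 shRNA, 23 in controls, edgeR adjusted p = 0.447). Cacna1s, the skeletal muscle pore, had 2 and 2 reads with Phf8 shRNA, against 16 and 10 in controls. It fell 5.87-fold in the fit (edgeR adjusted p = 2.46e-04, DESeq2 adjusted p = 0.0431), with a control over Phf8 shRNA read ratio of 6.17 (95% exact counting interval 2.14 to 24.3). The ratio ran from 4.89 to 7.39 when 1 library was left out. Without control replicate 1 the fit gave no value for Cacna1s. Its exons overlap those of Gm37759 on the opposite strand over 20.0% of their length, and that gene had 1 to 3 reads in a library.

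Of the Cav2 genes, which encode the channels that trigger transmitter release at synapses, Cacna1a and Cacna1e fell and Cacna1b rose, all by less than 1.5-fold. Cacna1a (P/Q-type) stood at 62.4 and 69.3 CPM with Phf8 shRNA, against 89.9 and 84.5 CPM in controls, a 1.33-fold fall (log2 fold change -0.41 ± 0.06 SE, edgeR adjusted p = 3.11e-12). Cacna1b (N-type) stood at 20.5 and 23.3 CPM, against 16.8 and 15.2 CPM, a 1.37-fold rise (0.45 ± 0.07, edgeR adjusted p = 7.40e-09). Cacna1e (R-type) stood at 5.18 and 4.49 CPM, against 6.98 and 6.82 CPM, a 1.42-fold fall (-0.51 ± 0.12, edgeR adjusted p = 4.92e-05). In each of the 3 genes both Phf8 shRNA libraries lay on the same side of both controls. Cacna1a took 70.7% of the Cav2 level per kilobase in each Phf8 shRNA library, against 80.0% and 80.5% in controls, and Cacna1b took 26.7% and 27.2%, against 17.1% and 16.6%. Cacna1a is the only one of the 40 genes whose deposited start differs from GENCODE M21, so its length is less certain.

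Of the T-type genes, whose channels open near resting potential, the 2 minor ones rose and the main one did not pass. Cacna1g stood at 5.27 and 5.34 CPM with Phf8 shRNA, against 1.53 and 1.05 CPM in controls, and rose 4.09-fold, the largest rise among the channel genes tested (log2 fold change 2.03 ± 0.17 SE, edgeR adjusted p = 6.15e-33). Cacna1i stood at 2.73 and 2.51 CPM, against 1.06 and 0.904 CPM, and rose 2.66-fold (1.41 ± 0.21, edgeR adjusted p = 6.92e-11). The groups were well apart for both. Cacna1h stood at 37.5 and 39.6 CPM with Phf8 shRNA, against 40.3 and 38.8 CPM in controls, which overlap (-0.04 ± 0.06, edgeR adjusted p = 0.625). Cacna1h still held 82.8% and 83.9% of the T-type level per kilobase with Phf8 shRNA, against 94.1% and 95.3% in controls.

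Of the alpha2delta genes, Cacna2d2 rose and Cacna2d1 and Cacna2d3 fell, and Cacna2d2 stayed below both per kilobase in each group. Cacna2d2 (chromosome 9, 107399612 to 107529343, plus strand) rose 3.04-fold, to 13.9 and 14.2 CPM with Phf8 shRNA, against 4.46 and 4.79 CPM in controls (log2 fold change 1.6 ± 0.10 SE, edgeR adjusted p = 5.95e-56). Cacna2d3 fell 1.89-fold, to 24.9 and 26.1 CPM with Phf8 shRNA, against 47.0 and 49.5 CPM in controls (-0.92 ± 0.06, edgeR adjusted p = 1.11e-47). Cacna2d1, which with Cacna2d2 encodes the binding sites of the gabapentinoid drugs and which is also known as a neuronal thrombospondin receptor, fell 1.35-fold, to 50.9 and 48.8 CPM, against 66.5 and 67.9 CPM (-0.43 ± 0.06, edgeR adjusted p = 3.96e-13). No library of a group reached the other group in any of the 3. Cacna2d4, known from the retina, had 45 and 40 reads with Phf8 shRNA, against 35 and 33 in controls, and did not pass (edgeR adjusted p = 0.215). Cacna2d2 took 19.8% and 20.3% of the alpha2delta level per kilobase with Phf8 shRNA, against 4.93% and 5.10% in controls, while Cacna2d3 took 32.4% and 33.9%, against 47.3% and 48.0%.

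The cytoplasmic beta subunits, which bind the linker between the first and second repeat of the pore, held the fall with the smallest p in the channel set. Cacnb4, the beta subunit altered in the lethargic mouse (chromosome 2, 52428320 to 52676831, minus strand), stood at 7.61 and 6.59 CPM with Phf8 shRNA, against 32.9 and 31.8 CPM in controls. It fell 4.53-fold (log2 fold change -2.18 ± 0.08 SE, edgeR adjusted p = 3.53e-156). Of its exonic length, 16% overlaps A430018G15Rik on the opposite strand, a gene with 0 to 5 reads in a library. Cacnb3 rose 1.34-fold, to 29.3 and 28.9 CPM with Phf8 shRNA, against 21.9 and 21.5 CPM in controls (0.42 ± 0.07, edgeR adjusted p = 2.50e-09). Cacnb1, the beta subunit of skeletal muscle that is also made in brain, rose 1.30-fold, to 14.6 and 14.3 CPM, against 11.4 and 10.8 CPM (0.38 ± 0.08, edgeR adjusted p = 2.45e-05). Cacnb2, the main cardiac beta subunit, fell 1.44-fold, to 5.94 and 5.97 CPM, against 8.62 and 8.53 CPM (-0.53 ± 0.11, edgeR adjusted p = 2.62e-06). All 4 genes were without overlap between groups. The beta subunit genes summed to 57.5 and 55.8 CPM with Phf8 shRNA, against 74.8 and 72.6 CPM in controls. Per kilobase of merged exons, which weighs the longer Cacnb2 and Cacnb4 less, the sums were 11.8 and 11.6 CPM per kb, against 12.3 and 11.9 CPM per kb. Within it, Cacnb4 took 7.17% and 6.36% with Phf8 shRNA, against 29.9% and 29.7% in controls, and Cacnb3 took 61.8% and 62.4%, against 44.4% and 45.0%.

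**Figure D3:**
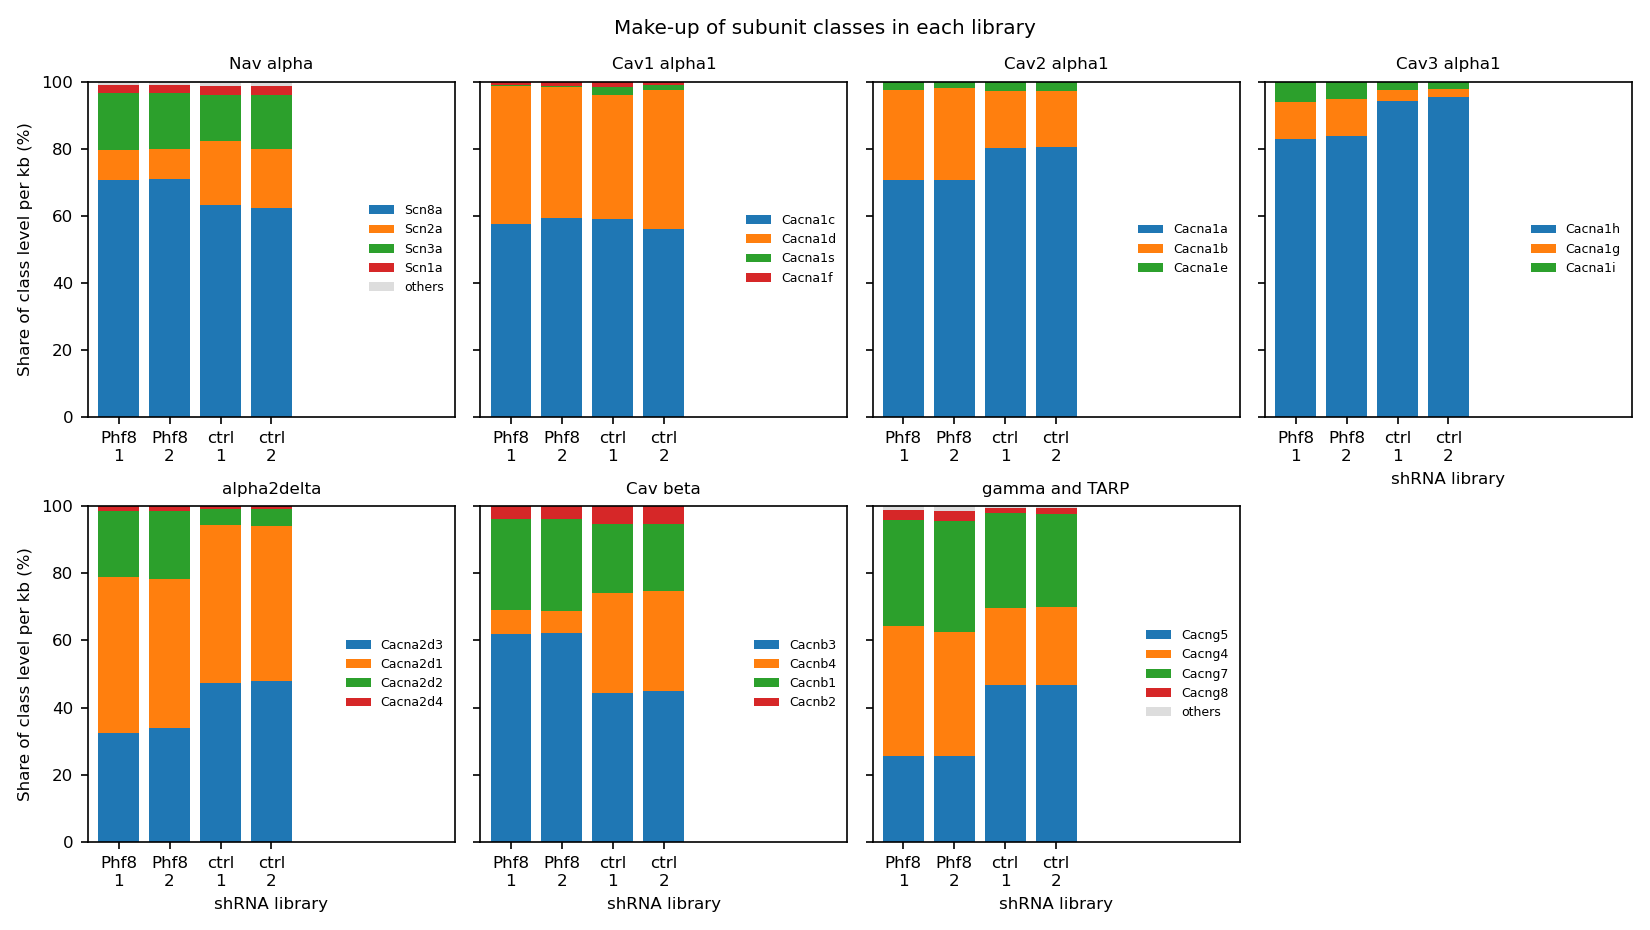
The share of each gene in the summed level of its subunit class (CPM per kilobase of exon) for 7 of the 8 classes, with 1 bar per library and Phf8 shRNA libraries to the left of controls. The bars of the Cav beta class differ in Cacnb4 (7.17% and 6.36% with Phf8 shRNA, 29.9% and 29.7% in controls), and those of the alpha2delta class in Cacna2d2 (19.8% and 20.3%, against 4.93% and 5.10%).

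The gamma and TARP genes had the highest levels per kilobase of the channel set, and their leading member differed between groups. Per kilobase, Cacng4 (21.6 CPM per kb), Cacng7 (18.3) and Cacng5 (14.5) came first, in that order, with Phf8 shRNA. In controls the order was Cacng5 (29.0 CPM per kb), Cacng7 (17.5) and Cacng4 (14.4). Cacng5, a type II TARP known from Bergmann glia, stood at 56.3 and 54.5 CPM with Phf8 shRNA, against 114 and 109 CPM in controls, and fell 2.01-fold (log2 fold change -1.0 ± 0.06 SE, edgeR adjusted p = 3.15e-68). Cacng4, a type I TARP, stood at 80.0 and 74.4 CPM, against 51.9 and 51.1 CPM, and rose 1.5-fold (0.58 ± 0.06, edgeR adjusted p = 9.98e-24). These opposite changes belong to neighbouring genes on the minus strand of chromosome 11, Cacng4 at 107732357 to 107794557 and Cacng5 at 107874605 to 107915055. Their shares of the class were 38.9% and 37.2% for Cacng4 with Phf8 shRNA, against 22.8% and 23.5% in controls, and 25.5% and 25.4% for Cacng5, against 46.7% and 46.6%.

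The other TARP genes were rarer or did not pass. Cacng7, a type II TARP, stood at 44.3 and 45.0 CPM with Phf8 shRNA, against 44.2 and 41.1 CPM in controls (0.06 ± 0.06, edgeR adjusted p = 0.374, and 0.0148 with upper-quartile scaling). Cacng2, which encodes stargazin, the first TARP described, rose 2.85-fold, to 2.96 and 3.08 CPM with Phf8 shRNA, against 1.04 and 1.08 CPM in controls (1.51 ± 0.20, edgeR adjusted p = 1.98e-13). Cacng8, the TARP typical of hippocampus, rose 1.79-fold, to 3.86 and 3.92 CPM, against 2.01 and 2.35 CPM (0.84 ± 0.16, edgeR adjusted p = 6.87e-07). Neither pair of groups overlapped. Cacng1, Cacng3 and Cacng6 were below the filter, with 0 to 8 reads in a library. On chromosome 7, Cacng7, Cacng8 and Cacng6 lie side by side on the plus strand. Of these, Cacng8 rose, Cacng7 did not pass and Cacng6 was not tested.

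A list of genes that anchor, modify or resemble these channels was followed beside them. Of 40 listed genes, 38 had a row, 34 were tested, 18 rose and 10 fell, with a median log2 fold change of 0.17. Over all genes tested, 24.8% rose and 27.3% fell, with a median of 0.01. Ank3, which encodes ankyrin-G, the anchor of sodium channels at the axon initial segment, rose 2.87-fold, to 75.4 and 71.6 CPM with Phf8 shRNA, against 25.2 and 26.1 CPM in controls (edgeR adjusted p = 4.93e-137). Of the 4 FGF homologous factors, cytoplasmic partners of sodium channel alpha subunits, 3 rose and Fgf13 was not tested. Fgf11 rose 2.66-fold, to 17.2 and 16.5 CPM, against 5.78 and 6.94 CPM, Fgf12 rose 2.19-fold and Fgf14 rose 1.58-fold. Nfasc, the neurofascin gene, fell 1.54-fold, to 148 and 144 CPM, against 227 and 224 CPM (edgeR adjusted p = 1.45e-27).

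Gem, a small GTPase that binds beta subunits and inhibits calcium channels, fell 6.76-fold, to 6.41 and 5.80 CPM with Phf8 shRNA, against 42.4 and 40.4 CPM in controls (edgeR adjusted p = 1.76e-251). Tpcn2, an endolysosomal channel related in sequence to both families, fell 2.39-fold, to 16.1 and 16.6 CPM, against 40.9 and 37.1 CPM. Akap5, an anchor of protein kinase A near L-type channels, rose 1.78-fold. Rest, the repressor for which Scn2a is a classical target in non-neuronal cells, stood at 52.0 and 53.6 CPM with Phf8 shRNA, against 60.2 and 61.3 CPM, and fell 1.15-fold (edgeR adjusted p = 0.00109). Of the 3 CoREST corepressor genes, Rcor2 rose 2.09-fold, to 18.2 and 18.6 CPM with Phf8 shRNA, against 9.18 and 8.41 CPM in controls. Rcor1 fell 1.14-fold, to 31.4 and 30.8 CPM, against 36.3 and 34.7 CPM (edgeR adjusted p = 0.00575), and Rcor3 did not pass (edgeR adjusted p = 0.464).

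Markers of other cell types differed between the groups as well, where 24.8% of all genes tested rose and 27.3% fell. Of 12 neuron markers, 9 were tested, of which 8 rose and 0 fell (median log2 fold change 0.91), and their summed level was 1931 and 1928 CPM with Phf8 shRNA, against 1166 and 1206 CPM in controls. Map2 held most of that sum and rose 1.51-fold, to a mean of 1385 CPM with Phf8 shRNA, against 919 CPM in controls. Gad1, which makes the transmitter GABA, rose to a mean of 103 CPM with Phf8 shRNA, against 41.6 CPM in controls, Syt1 to 104, against 44.6 CPM, and Dcx, a marker of young neurons, to 208, against 111 CPM. Rbfox3 did not pass, and Stmn2, Slc17a6 and Slc17a7, which were not tested, were at 0.207, 0 and 0.0851 CPM with Phf8 shRNA, against 0.179, 0.0244 and 0 CPM in controls. Of 10 oligodendrocyte lineage markers, 9 rose and 0 fell (median 1.23), with sums of 1164 and 1135 CPM with Phf8 shRNA, against 675 and 630 CPM in controls. All 4 ependymal markers fell, with sums of 30.6 and 29.4 CPM, against 180 and 170 CPM. Of 8 astrocyte markers, 2 rose and 5 fell (median -0.32), with sums of 6439 and 5747 CPM with Phf8 shRNA, against 9282 and 9039 CPM in controls. Gfap alone took a mean of 1172 CPM of these sums with Phf8 shRNA, against 3971 CPM in controls. Of 5 endothelial and mural markers, 1 rose and 2 fell, and their sums were 24.9 and 25.4 CPM, against 23.5 and 22.5 CPM. These similar sums hold opposite changes. Pdgfrb rose to a mean of 23.9 CPM with Phf8 shRNA, against 9.54 CPM in controls. Acta2 fell to 0.436, against 8.81 CPM, and Kdr to 0.465, against 4.49 CPM. Microglia markers summed to at most 3.81 CPM with Phf8 shRNA and 3.19 CPM in controls, with Tmem119 at or near 0. Of 7 skeletal and cardiac muscle markers, 3 rose and 1 fell. Their sums were 44.9 and 46.0 CPM, against 28.3 and 28.4 CPM. Most of that level lay in Myh6 (mean 19.7 CPM with Phf8 shRNA, against 8.32 CPM in controls), Ryr2 (12.4, against 7.63 CPM) and Ttn (12.1, against 11.4 CPM). Of these, Myh6 and Ryr2 rose and Ttn did not pass, while Myh1 and Myh2 were at or near 0. The part of these cell types in the changes of channel genes was not tested.

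**Figure D4:**
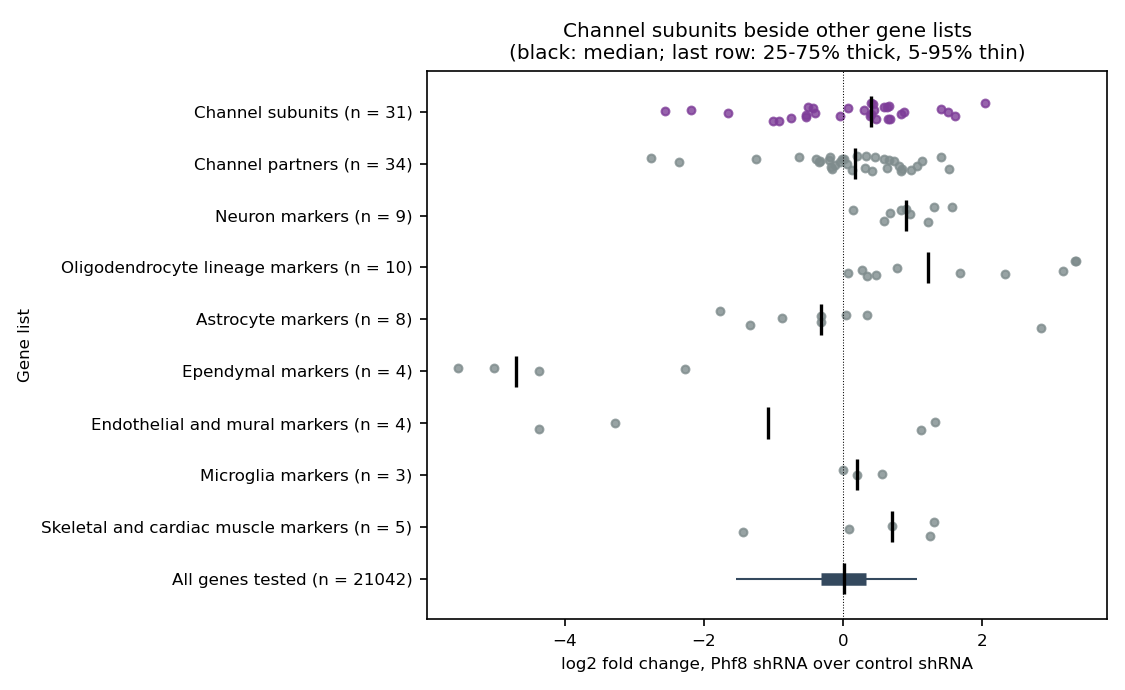
The log2 fold change of each tested gene of the channel set (purple), of the partner list and of the cell type marker lists (grey), with black lines at the medians and the distribution of all 21042 genes tested in the last row. Channel genes spread to both sides of 0 with a median of 0.40, while the tested neuron and oligodendrocyte lineage markers all lie above 0 and the ependymal markers all below.

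All p-values rest on 2 libraries per group that the design text calls biological replicates without saying what was replicated, so they measure the spread between these libraries, which may be technical. The common biological coefficient of variation was 3.64%. A value of 0.2 was also set in its place, with the likelihood-ratio test of edgeR instead of the quasi-likelihood test. Then 4 channel genes were called higher (Cacna1g, Cacna2d2, Cacng2 and Cacna1i) and 5 lower (among them Cacnb4, Cacng5, Cacna1s and Cacna2d3). The other 17 calls, among them Scn8a (edgeR likelihood-ratio adjusted p = 0.103), Cacna1c (0.139) and Cacng4 (0.189), were lost. Exons of 9 of the 31 tested genes overlap a gene on the opposite strand, and no such gene had more than 70 reads in a library. The sources used here do not give the strand setting of the counting. If it was unstranded, low counts of an opposite-strand gene cannot show how many reads the overlap cost a channel gene.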

How the data were processed

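Per the submitters' processing notes, mm10 was the build and the tools included the alignment program HISAT2, the counting program HTSeq and DESeq2; the notes used here give no versions, settings or roles. The deposited files hold whole-number counts of reads per gene, not normalized, 1 file per library, with coordinates. Symbols, types and exonic lengths came from GENCODE M21 (GRCm38), matched on gene ID for 55154 of 55421 identifiers. Of the 40 channel genes, 39 had the M21 coordinates.

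Groups came from the sample titles. Counts of all genes were fitted with the quasi-likelihood test of edgeR 4.0.16 (R 4.3.3; filterByExpr, TMM, no covariates, two-sided) and adjusted over all 21042 genes tested by Benjamini-Hochberg, with calls at an adjusted p under 0.05 and no fold limit. Standard errors were derived from the F statistic. Ratios of reads have 95% exact binomial intervals. Levels compared between genes are CPM per kb of merged exons. Depth was 36839530 to 44724759 reads. Both libraries of a group differed by more than sampling noise (chi-square per degree of freedom 2.88 and 3.18) and each was counted as a sample.

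The channel genes, the partner list and the marker lists were chosen with earlier results of these data known. Every channel gene is counted, the values of 2 of them are not reported here, and of the partner list Rest and the 8 called genes with the smallest p are named, plus Fgf13, Fgf14, Rcor1 and Rcor3 to complete their families; marker genes were named after their values were seen. Alternatives were DESeq2 1.42.0, limma-voom (limma 3.58.1), other scalings and filters, the replicate block, leaving out each library, and a fit without mitochondrial genes and the top 20 by abundance. Added after the data were seen were a set coefficient of variation, with the likelihood-ratio test of edgeR, and read ratios without each library. Promoters are RefSeq's. Protein sequences were not used here.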

Additional observations from a re-analysis of the deposited data

How the results depend on the processing

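Of the 26 channel genes called, 24 kept their direction and their call under every other scaling, filter, tool and left-out library that gave them a value, and with the replicate block. The exceptions were Scn1a and Scn2b, whose values stand beside them above. The number of channel genes that rose ran from 13 to 16 and the number that fell from 10 to 12 over these settings. Leaving out 1 library at a time gave 13 to 15 that rose, 10 to 12 that fell, 9053 to 10235 called genes in all and 24 to 27 called partner genes. DESeq2 called 8016 genes in all, with 13 channel genes higher and 11 lower. Cacna1h, which did not pass, changed sign to 0.0437 with upper-quartile scaling and ran from -0.0740 to 0.00356 when 1 library was left out; the cause was not tested. Of all calls, 47.7% were higher genes after TMM, 58.0% after upper-quartile scaling (6640 higher, 4811 lower) and 40.3% with library size alone (4335 higher, 6422 lower), and the channel genes called numbered 16 higher and 11 lower after upper-quartile scaling and 15 higher and 11 lower with library size alone. The replicate block gave 15 channel genes higher and 11 lower, 10929 called genes and 28 called partner genes, and changed no call of a channel gene. The deviations of libraries with the same number from their group means had a correlation of r = 0.00336 across genes. With 2 libraries per group and genes of few reads included, this value cannot show whether a number marks a shared preparation. With the coefficient of variation set to 0.2 and the likelihood-ratio test of edgeR, a choice made after the data were seen, 3305 genes were called in all, with 4 channel genes higher, 5 lower and 9 partner genes. Genes with few reads, such as Cacna1s and Cacna1f, are limited by depth.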
